A study of Rattus norvegicus with 24 samples.

Results

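Cartilage at the proliferative-hypertrophic transition of the rat growth plate was compared with the zone on either side of it, to find genes with a peak or a trough there and not a graded course. Of the 24 arrays in the series, 15 enter the comparison: 5 titled as the proliferative-hypertrophic transition zone, 5 as the proliferative zone and 5 as the hypertrophic zone, 1 of each from the animals numbered 1 to 5. The arrays were chosen by title, with no measured value, though with earlier results of these data known. The other 9 (5 of the resting zone and 4 of epiphyseal cartilage, the latter without animal 3) are given for reference. All animals were 1-week-old rats that were not castrated. The strain is not given in the labels, and each array holds tissue cut by hand from the proximal tibiae of 1 animal. For the proliferative, hypertrophic and resting arrays the source label gives male rats of 7 days. For the transition and epiphyseal arrays it gives no sex, and the growth protocol differs in wording: it names untreated rats on standard chow, where that of the other zones describes a castration that excludes animals of this age. This difference in wording sets the transition arrays apart from both neighbours, so zone and label wording cannot be told apart in any value of this comparison. Whether the arrays of the 2 wordings were also collected or hybridised at different times is not stated in the labels, and such a difference could not be told apart from zone either. In bulk tissue, fewer cells of a type and less RNA per cell also cannot be told apart.

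Growth plate chondrocytes divide in columns in the proliferative zone, leave the cell cycle, and enlarge in the hypertrophic zone, where they produce collagen X and prepare the matrix for mineralization. Cells at the boundary, called prehypertrophic, are known for making Indian hedgehog, which acts on proliferating cells and on the PTHrP loop that delays hypertrophy. Cholesterol synthesis runs from acetyl-CoA through mevalonate and squalene to sterols, and its enzyme genes respond together to SREBP2, often with NF-Y bound to CCAAT boxes close by. CCAAT boxes are also common in genes of the G2 and M phases, where they stand near a cell cycle homology region bound by the DREAM complex.

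Signals are MAS5 intensities, and differences are on the scale of log2(signal + 16), which understates changes of weak genes. The contrast is the transition zone minus the mean of the proliferative and hypertrophic zones within an animal, fitted with limma, and ± after a log2 difference is its standard error (5 arrays a zone). A probe set was called at a Benjamini-Hochberg adjusted p below 0.05 and at least 2-fold, and it was a peak or a trough when the transition zone also lay above or below each neighbour at an adjusted p below 0.05. The differences from each neighbour share the transition arrays. Of 19213 probe sets tested, 134 (0.697%) were higher and 610 (3.17%) lower, and they held 43 peaks (0.224%) and 221 troughs (1.15%). Among 10558 genes, each taken at its probe set of highest mean, 83 (0.786%) were higher and 380 (3.6%) lower, with 28 peaks (0.265%) and 137 troughs (1.3%). Without animal 5 the counts were 21 peak and 111 trough probe sets, without only its transition array 26 and 144, and without animal 3 there were 65 peaks. The middle of the transition arrays lay low: their median signal minus the mean of their neighbours' was -61.1 to -6.9 in the 5 animals. Scaling all arrays to 1 median moved the median difference over all probe sets from -0.0422 to 0.165 and the split from 134 higher and 610 lower to 342 and 355, and quantile normalization left 361 lower. The log2 ratio of 3′ to 5′ Gapdh control signal was -1.11 to 0.12 against the neighbours, and that of beta-actin was -0.23 to 0.35. The part of array level and RNA quality in the counts was not tested.

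**Figure D1:**
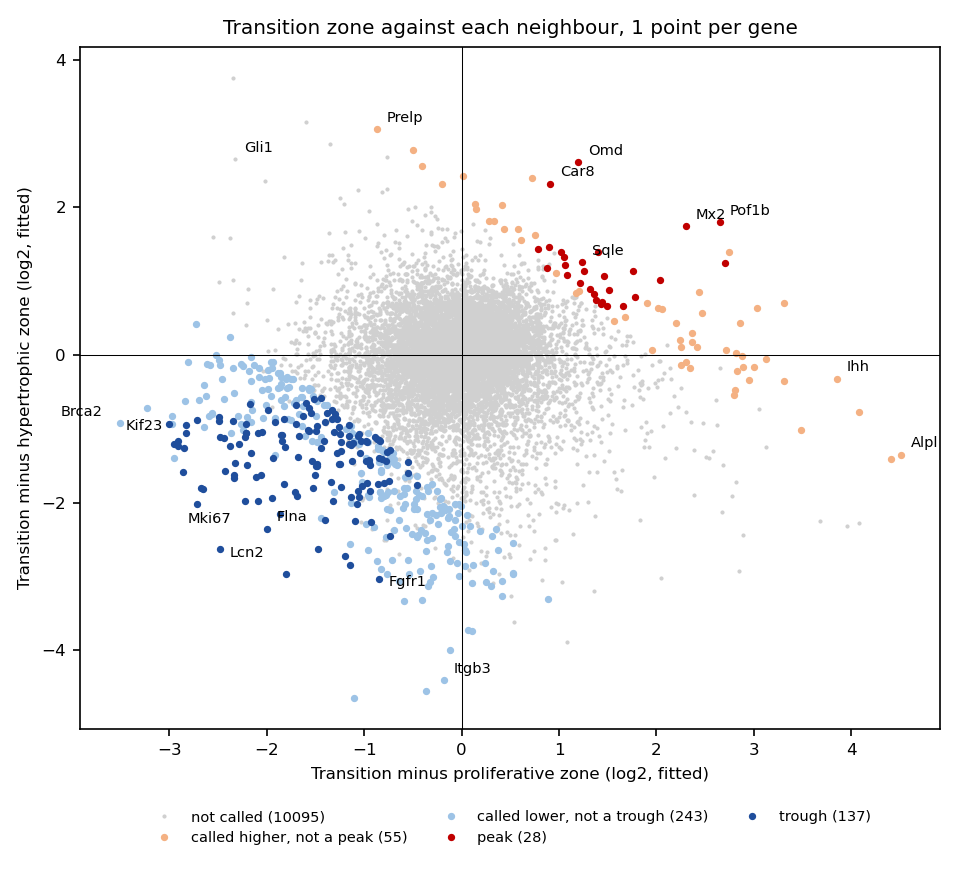
Each point is a gene, at its transition minus proliferative difference (horizontal) and transition minus hypertrophic difference (vertical), both fitted on the log2 scale. The 28 peaks lie in the upper right and the 137 troughs in the lower left, while Ihh and Alpl lie to the right near or under 0 and Itgb3 straight down.

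Most called genes followed another course than a peak or a trough. Of the 83 higher genes, 36 had risen from the proliferative zone and did not differ from the hypertrophic zone past the threshold, among them Ihh, Col10a1 and Sgms2. A further 15 passed only against the hypertrophic zone (Moxd1, Sema6a and Matn2 among them), 3 rose again in the hypertrophic zone (Alpl, Sgsm1 and Pnpla3), and Prelp fell across all 3 zones. On the lower side 147 of 380 genes passed only against the hypertrophic zone, such as Itgb3 and Ero1b, and 95 only against the proliferative zone, such as Brca2, Esco2 and Ska1. Epas1 alone of them rose in both steps. The transition array was above both neighbours of its animal in 5 of 5 animals for 21 of the 28 peak genes and in 4 for the other 7. For the troughs it was below both in 5 animals for 105 genes, in 4 for 29 and in fewer for 3. All 5 transition arrays lay above all 10 neighbour arrays in 49 genes (0.464% of those tested), 8 of them peaks, and below in 69 (0.654%), 42 of them troughs.

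Promoters are shown for some genes of the 2 groups that most of the account below turns on. They are the 4 cholesterol synthesis peaks with a promoter entry and 3 troughs of cell division, picked by no fixed rule. Each line is the 250 bases before the RefSeq gene start on the gene's own strand, 5′ to 3′, from the table for assembly GRCr8: Idi1 at chr17:66547525-66547774 (-), Fdps at chr2:176804817-176805066 (-), Msmo1 at chr16:29746863-29747112 (+) and Hsd17b7 at chr13:84722755-84723004 (-). Capitals mark CCAAT, or ATTGG where it lies on the other strand.
Idi1: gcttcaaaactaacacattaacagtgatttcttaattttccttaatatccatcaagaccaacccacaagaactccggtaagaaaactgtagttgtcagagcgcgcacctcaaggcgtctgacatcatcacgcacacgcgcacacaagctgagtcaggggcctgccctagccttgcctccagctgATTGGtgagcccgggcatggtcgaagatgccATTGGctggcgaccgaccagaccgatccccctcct
Fdps: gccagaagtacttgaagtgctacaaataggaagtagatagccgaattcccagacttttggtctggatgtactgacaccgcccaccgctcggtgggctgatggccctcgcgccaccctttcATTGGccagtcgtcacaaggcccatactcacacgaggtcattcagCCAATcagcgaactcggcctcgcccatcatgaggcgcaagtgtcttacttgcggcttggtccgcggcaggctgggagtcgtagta
Msmo1: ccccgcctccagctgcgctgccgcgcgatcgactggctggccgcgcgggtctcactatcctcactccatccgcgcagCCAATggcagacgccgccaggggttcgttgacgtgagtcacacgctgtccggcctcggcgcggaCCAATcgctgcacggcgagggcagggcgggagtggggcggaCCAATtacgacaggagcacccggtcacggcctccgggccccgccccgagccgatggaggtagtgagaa
Hsd17b7: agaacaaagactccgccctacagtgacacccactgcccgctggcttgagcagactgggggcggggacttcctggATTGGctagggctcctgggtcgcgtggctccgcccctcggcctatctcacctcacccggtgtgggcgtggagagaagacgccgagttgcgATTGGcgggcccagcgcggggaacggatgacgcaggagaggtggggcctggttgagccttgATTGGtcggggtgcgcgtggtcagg
The second set is Mki67 at chr1:199952594-199952843 (-), Kif23 at chr8:71320585-71320834 (-) and Espl1 at chr7:135302466-135302715 (+). Here capitals mark CCAAT and TTTGAA, the cell cycle homology region, on either strand, and in Mki67 one pair of them overlaps by a base.
Mki67: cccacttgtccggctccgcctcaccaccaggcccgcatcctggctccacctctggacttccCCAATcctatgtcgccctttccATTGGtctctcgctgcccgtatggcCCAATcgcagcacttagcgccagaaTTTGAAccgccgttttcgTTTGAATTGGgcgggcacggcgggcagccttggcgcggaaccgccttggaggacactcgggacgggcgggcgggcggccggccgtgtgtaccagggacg
Kif23: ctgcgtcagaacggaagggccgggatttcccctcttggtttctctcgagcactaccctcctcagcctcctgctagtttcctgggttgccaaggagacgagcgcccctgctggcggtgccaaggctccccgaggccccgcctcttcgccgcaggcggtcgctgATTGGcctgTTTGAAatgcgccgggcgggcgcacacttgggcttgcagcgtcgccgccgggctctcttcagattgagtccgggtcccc
Espl1: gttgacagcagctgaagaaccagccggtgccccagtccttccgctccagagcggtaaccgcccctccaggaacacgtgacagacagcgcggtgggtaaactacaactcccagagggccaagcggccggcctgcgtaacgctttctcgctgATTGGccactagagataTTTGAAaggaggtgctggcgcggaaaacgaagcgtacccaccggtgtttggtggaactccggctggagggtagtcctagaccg
Idi1 and Fdps each hold 2 CCAAT boxes in this window, and Msmo1 and Hsd17b7 hold 3. In Kif23 a CCAAT box starts 88 bases before the gene start and TTTGAA 79, and in Espl1 they start 100 and 83 bases before it. Over the whole 300-base window, which runs 50 bases past the start, CCAAT was found on either strand in 37.7% of 27457 promoters and in 38% of the 8816 tested genes with an entry. It was found in 13 of the 15 tested cholesterol synthesis genes with an entry (86.7%) and in 18 of 24 mitosis genes (75%). Among all peak genes with an entry it was in 8 of 20 (40%), and among trough genes in 56 of 113 (49.6%). TTTGAA was found in 18.1% of all promoters, 11.2% of tested genes, 17 of 24 mitosis genes (70.8%) and 2 of 15 cholesterol synthesis genes. It was in 4 of 20 peak genes (20%) and 27 of 113 trough genes (23.9%). Of 14 mitosis troughs with an entry, 11 held CCAAT and 10 held TTTGAA, while all 3 cell division genes shown hold both. CACNCCAC, a core form of the sterol regulatory element added to the search with the values known, was in 5.7% of all promoters, in 6.05% of tested genes, in 2 of the 15 cholesterol synthesis genes and in 0 of these 4. ACGTG, the hypoxia response core, was in 19.7% of all promoters, 26% of tested genes, 4 of 20 peak genes (20%) and 25 of 113 trough genes (22.1%). TGACTCA, whose reverse complement TGAGTCA is the same AP-1 site, was in 4.53% of all promoters, 3.37% of tested genes, 3 of 20 peak genes and 4 of 113 trough genes. Of the 4 cholesterol synthesis peaks shown, 2 hold this site (Idi1 and Msmo1) and 1 holds TTTGAA (Idi1), not marked above. These matches describe letters, and whether a factor binds there was not measured.

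Of 19 tested genes on the cholesterol synthesis list, 16 were higher in the transition zone at an adjusted p below 0.05 at any fold, and 5 were also past 2-fold and were peaks: Idi1, Fdps, Sqle, Msmo1 and Hsd17b7. Over all genes 1810 of 10558 passed at any fold, in either direction, and 0.265% were peaks. The median contrast of the 19 was 0.77 and 17 were above 0, against -0.01 and 48.6% over all genes. Their median was 0.99 against the proliferative and 0.69 against the hypertrophic zone. The list was chosen with earlier results of these data known, so these shares describe it and are not a separate test.
Idi1, the isomerase that supplies dimethylallyl diphosphate, had signals of 3131, 3354, 2777, 2197 and 2797 in the transition arrays of animals 1 to 5. The proliferative arrays of the same animals read 1308, 1228, 1085, 1029.8 and 1201, and the hypertrophic arrays 1642, 1417, 2895, 535 and 911. The transition signal was the highest of the 3 zones in every animal but animal 3, whose hypertrophic array was slightly higher, and the contrast was 1.20 ± 0.22 (adjusted p = 0.000722). Fdps, which joins those units into farnesyl diphosphate, read 19971, 13761, 14792, 12589 and 17315 in the transition zone, 8944, 5528, 6646, 4051 and 4648 in the proliferative zone and 14204, 9280.1, 16409.5, 4761 and 7829 in the hypertrophic zone. Again only the hypertrophic array of animal 3 exceeded its transition array, and the contrast was 1.06 ± 0.17 (adjusted p = 0.000152).
Sqle, squalene epoxidase, the enzyme of the first oxygen-requiring step, read 3139, 2839.8, 3692, 1830.3 and 3755 in the transition zone. Its signals were 1533, 1629.5, 1391, 819.5 and 1041 in the proliferative and 1484, 1271, 3125, 740.2 and 620.2 in the hypertrophic zone. All 5 animals had their highest Sqle signal in the transition zone, by a factor that was small in animal 3 and large in animal 5, and the contrast was 1.25 ± 0.22 (adjusted p = 0.000433). Msmo1, the sterol C4 methyl oxidase, had a contrast of 1.08 ± 0.19 and Hsd17b7, the reductase that acts after it, one of 1.11 ± 0.20 (adjusted p = 0.000594 and 0.000605). Hsd17b7 read 1258, 983, 2453, 908 and 1824 in the transition zone, 563, 574, 929.9, 288 and 541 in the proliferative zone and 752, 724, 1963, 409 and 482 in the hypertrophic zone, highest at the transition in all 5 animals. Nsdhl, the dehydrogenase between those enzymes, was not called at 0.86 ± 0.15 (adjusted p = 0.000294) because it stayed under 2-fold, while another probe set of it was a peak at 1.23 ± 0.19.

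The other members were less than 2-fold. Given to complete the pathway and outside the rule for named genes, Tm7sf2 was at 0.91, Lss at 0.90, Cyp51 at 0.79, Mvd at 0.77, Dhcr7 at 0.76 and Insig1, the sterol-sensing retention protein, at 0.68. Mvk was at 0.17, Pmvk at -0.09 and Srebf2, which encodes SREBP2, at 0.00. Acat2, the cytosolic thiolase that opens the mevalonate route and is not on the list, was also a peak, at 1.26 ± 0.20 (adjusted p = 0.000141), and is named here after its value was seen. Sqle and Idi1 kept the peak call under all 19 other settings tried. Without animal 5 the contrast was 0.95 for Fdps, 0.95 for Msmo1 and 0.94 for Hsd17b7, under 2-fold, and without only its transition array 0.93, 0.97 and 0.96. Without animal 2, Msmo1 (1.10) no longer passed as a peak, and without the hypertrophic array of animal 4 neither Fdps nor Msmo1 did (0.96 each). Quantile normalization also ended the call of Fdps (0.97) and Msmo1 (0.95), and array weights that of Fdps (0.90), Msmo1 (0.92) and Hsd17b7 (0.92). Fdps and Hsd17b7 were not peaks without the replicate block, nor was Fdps without animal 4 (0.95). Of 19 other settings, Fdps and Msmo1 kept the call in 12 and Hsd17b7 in 15. The other tested probe set of Idi1 was under 2-fold at 0.91 ± 0.19.
The same genes stood higher in epiphyseal cartilage, which shares the transition zone's label wording, than in the resting zone: 17 of the 19 did so, with a median of 0.55, against 48.3% of all genes. Taking that difference off the contrast left a median of 0.23, and limma passed 0 of the 19 at an adjusted p of 0.05 and 2 at an unadjusted p of 0.05. Sqle was then at 1.08 (adjusted p = 0.0845) and Idi1 at 0.53 (adjusted p = 0.469). Set against epiphyseal cartilage itself, the transition zone was higher for 18 of the 19, 15 of them at an adjusted p below 0.05. Of all 10558 genes 5135 were higher, 1688 of them at that limit. Epiphyseal and resting cartilage differ in tissue as well as in label wording, and the subtraction adds the error of a second difference, with 4 epiphyseal arrays. How much of the peak goes with label wording therefore cannot be told from these values.

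**Figure D2:**
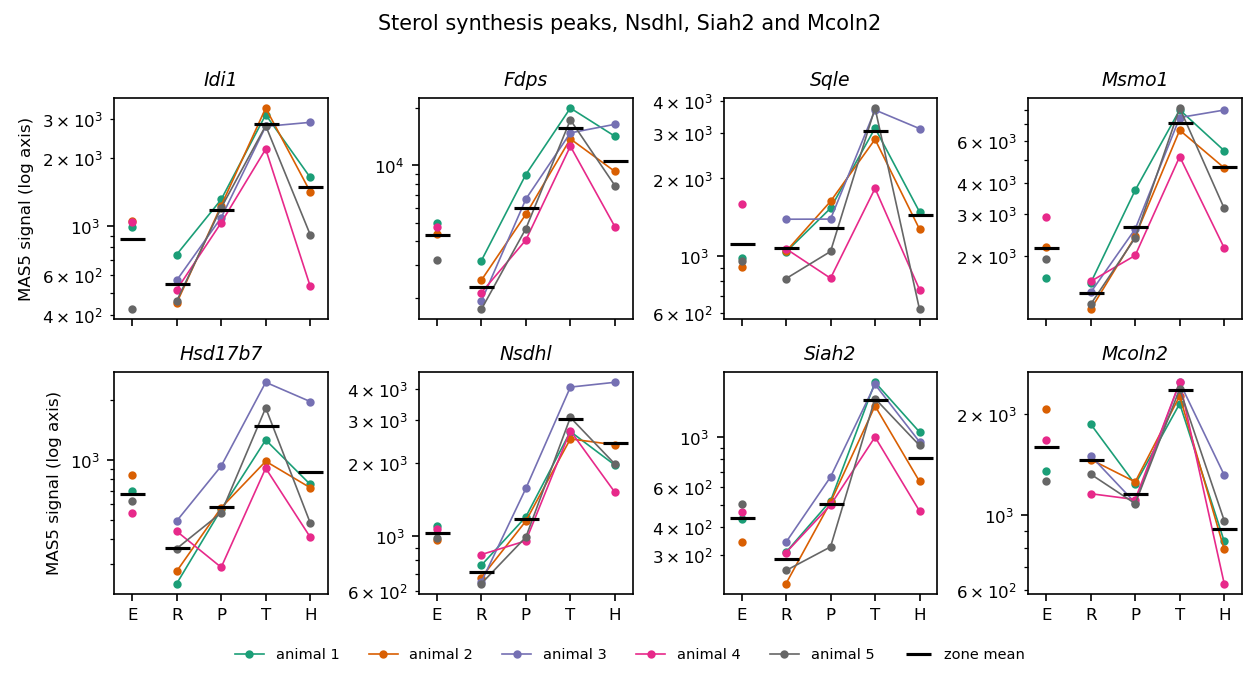
MAS5 signal on a log axis in epiphyseal cartilage (E), resting (R), proliferative (P), transition (T) and hypertrophic (H) zones, with a line per animal and a bar at the zone mean, for 6 sterol synthesis genes, Siah2 and Mcoln2. The transition signals are the highest of P, T and H in every animal for Sqle, Hsd17b7, Siah2 and Mcoln2, and in every animal but animal 3 for Idi1, Fdps, Msmo1 and Nsdhl.

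The largest peaks belonged to genes of unlike function. Pof1b, an actin-binding protein known from epithelia, had the largest contrast of them, 2.22 ± 0.46 (adjusted p = 0.00222), with transition signals of 456, 743, 506, 666 and 679. The proliferative arrays read 269, 106, 135, 62.3 and 6.4 and the hypertrophic arrays 107, 104, 317, 116 and 255. No neighbour array reached the lowest transition array. Mx2, an interferon-induced GTPase, read 570.1, 864, 595, 829 and 638 in the transition zone, 148, 155, 72.5, 108 and 182 in the proliferative and 182, 56.2, 386, 272 and 239 in the hypertrophic zone. These groups did not overlap either, at 2.02 ± 0.39 (adjusted p = 0.00121), but a second probe set of Mx2 gave 0.72 ± 0.28 (adjusted p = 0.087). Tmem229a, a membrane protein, was at 1.97 ± 0.36, with a second probe set at 0.41 ± 0.27 (adjusted p = 0.33). It kept the peak call in 10 of the 19 other settings.

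Omd, osteomodulin, a small keratan sulfate proteoglycan, read 2516, 2383, 6527, 3404 and 5326 in the transition zone. Its proliferative signals were 1536, 2002, 2527, 1344 and 1038 and its hypertrophic signals 421, 262, 1764, 1121 and 337. Omd was highest at the transition in all 5 animals, most of all in animal 5, and the zones overlapped because the proliferative array of animal 3 exceeded the transition arrays of animals 1 and 2. The contrast of Omd was 1.90 ± 0.27 (adjusted p = 4.91e-05). Omd and Tmtc1 were the only 2 of the 28 peak genes that were lower in the transition zone than in epiphyseal cartilage, at -1.10 (adjusted p = 0.0145) and -0.93 (adjusted p = 0.0118).
Car8, a carbonic anhydrase-related protein without enzyme activity, read 7788, 9812, 9167, 9112 and 9776 in the transition zone, 4631, 6387, 4869, 4368 and 4233 in the proliferative zone and 1928, 1649, 3953, 1189 and 1287 in the hypertrophic zone. The lowest transition array exceeded the highest of both neighbours, at 1.61 ± 0.24 (adjusted p = 9.33e-05), and unlike most peaks Car8 was lower in epiphyseal than in resting cartilage (-1.32, adjusted p = 0.0141). Kank3, a regulator of the actin skeleton, was at 1.53 ± 0.25 and Syt17, of the synaptotagmin family, at 1.45 ± 0.28. Phlda2, an imprinted gene that limits growth of the placenta, was at 1.40 ± 0.41 (adjusted p = 0.0234), and its adjusted p was 0.153 without animal 5 and 0.0521 without animal 2.

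**Figure D3:**
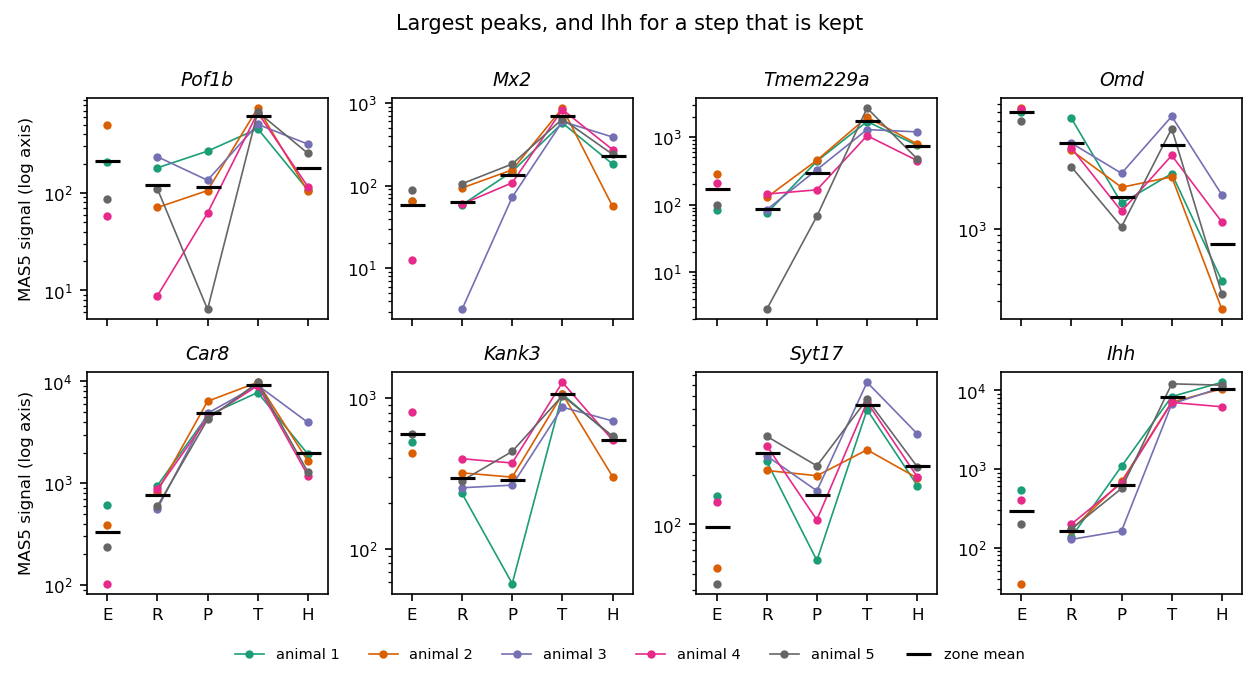
MAS5 signal on a log axis by zone and animal, as E, R, P, T and H, for the 7 largest peaks and for Ihh. In Pof1b, Mx2, Car8 and Kank3 every transition array lies above every P and H array, while Ihh rises into T and stays level in H.

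Some smaller peaks were the most even. Mcoln2, a cation channel of endolysosomes, read 2152, 2267, 2489.6, 2491 and 2379.6 in the transition zone, with 1238, 1259, 1090.3, 1115 and 1084 in the proliferative and 838, 793, 1319, 627 and 966 in the hypertrophic zone. The 5 transition arrays differed little from each other and stood clear of all neighbours, at 1.21 ± 0.14 (adjusted p = 7.1e-06). Siah2, a ubiquitin ligase of the hypoxia response, was at 1.20 ± 0.17 (adjusted p = 4.52e-05) and was the highest of the 3 zones in all 5 animals. Ppa1, the cytosolic pyrophosphatase, was at 1.14 ± 0.16, Slc33a1, the acetyl-CoA carrier of the endoplasmic reticulum, at 1.18 ± 0.20, Med14, a Mediator subunit, at 1.11 ± 0.15 and Col12a1, a fibril-associated collagen, at 1.18 ± 0.28 (adjusted p = 4.65e-05, 0.000281, 3.52e-05 and 0.00532). Other probe sets were not called: Med14 at 0.27 ± 0.24 (adjusted p = 0.504), -0.10 against the proliferative zone, Slc33a1 at 0.65 and 0.43, and Col12a1 at 0.78 ± 0.38.
Of the 19 peak genes named by rule, 8 kept the call without animal 5, 10 without its transition array alone and 10 without animal 2. The 11 lost without animal 5 still differed by 0.85 to 1.60, and the 9 lost without animal 2 by 1.07 to 2.11. Car8, Omd, Slc33a1 and Ppa1 were among those lost without animal 5. Pof1b, Mx2, Car8, Kank3 and Slc33a1 were among those lost without animal 2. Car8 also lost the call without the transition array of animal 5 and after quantile normalization. Idi1, Mcoln2, Siah2, Sqle and Syt17 kept it under every other setting in which they were tested.
Across all 28 peak genes, 23 (82.1%) were higher in epiphyseal than in resting cartilage, against 48.3% of all genes, with a median of 0.54. With that difference taken off, 5 still passed an adjusted p of 0.05: Car8 (2.93, adjusted p = 6.9e-05), Syt17 (2.84, adjusted p = 0.000631), Slc33a1 (1.56, adjusted p = 0.00669), Mcoln2 (1.06, adjusted p = 0.00959) and Ppa1 (1.06, adjusted p = 0.0207). Of all 10558 genes, 181 passed above 0 and 259 below. Against epiphyseal cartilage, 26 of the 28 were higher in the transition zone, 25 of them at an adjusted p below 0.05. Of all genes 5135 were higher, 1688 of them at that limit. The peaks were chosen on the same transition arrays, so these counts are not a separate test of them.

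Of 27 tested mitosis genes, 23 were called lower in the transition zone than the mean of its neighbours, against 3.6% of all genes. Of these, 16 were troughs, so that they were also higher in the hypertrophic arrays, against 1.3% of all genes. The median contrast was -1.60, against -0.01 over all genes. The 4 not called were Cdc20 (-0.77), Bub1 (-0.89), Birc5 (-0.81) and Cks2, which was on the other side at 0.40 (adjusted p = 0.0408), and against the hypertrophic zone Bub1 was at -0.14. The median was -2.20 against the proliferative and -0.94 against the hypertrophic zone, so the fall on entering the zone was the larger side. This list too was chosen with earlier results of these data known, so its shares are not a separate test.
Mki67, the proliferation antigen Ki-67, read 489.7, 388, 484, 796 and 399.5 in the transition arrays of animals 1 to 5. The proliferative arrays read 3696, 3079.5, 3053, 2878 and 4034 and the hypertrophic arrays 1922, 1418, 1084, 2714 and 4544. No transition array reached the lowest neighbour array, and the contrast was -2.37 ± 0.21 (adjusted p = 2.65e-07). Nusap1, which binds spindle microtubules, read 257, 271, 270.2, 295 and 258 in the transition zone, 2759, 1547, 2226, 1696 and 2293 in the proliferative zone and 625, 928, 574, 1040.4 and 1207 in the hypertrophic zone. The 5 transition values of Nusap1 were the most alike of these genes and lay apart from all neighbours, at -2.22 ± 0.17 (adjusted p = 1.02e-08).
Kif23, a kinesin of the central spindle, read 284, 278, 157, 204 and 231 in the transition zone, 2513, 1739.9, 1382, 1743 and 2108 in the proliferative zone and 367, 653, 412, 744 and 653 in the hypertrophic zone. Its groups did not overlap either, at -2.08 ± 0.22 (adjusted p = 1.68e-06), though the hypertrophic values were nearer the transition zone than the proliferative ones. Ccna2, cyclin A2, was at -2.23 ± 0.34, Espl1, separase, at -2.24 ± 0.37, Ect2, a cytokinesis exchange factor, at -2.06 ± 0.28, Prc1, of the spindle midzone, at -2.0 ± 0.25 and Ccnb1, cyclin B1, at -1.85 ± 0.27 (adjusted p = 9.39e-05, 0.000244, 4.28e-05, 1.68e-05 and 7.89e-05). Iqgap3, Spc24 and Lmnb1 (lamin B1) were troughs of -2.07 ± 0.36, -2.04 ± 0.27 and -2.0 ± 0.25, but a second probe set of Lmnb1 was at 0.22 ± 0.35.

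DNA replication genes had smaller contrasts: of 22 tested, 6 were called lower (Mcm3, Mcm6, Mcm7, Cdt1, Gins1 and Brca2) and 2 of them, Mcm7 at -1.35 and Cdt1 at -1.78, were troughs. Over all genes 3.6% were called lower and 1.3% were troughs. All 22 lay below 0, with a median of -0.93, of -1.57 against the proliferative zone and of -0.22 against the hypertrophic zone. Of the D cyclins and CDK inhibitors, 3 of 18 were called, all lower, against 3.6% of all genes. Ccnd1, cyclin D1, which drives entry into S phase, read 407, 603, 547, 452 and 151 in the transition zone, 933, 1623, 804, 1272 and 1176 in the proliferative and 957, 1319, 667, 1962 and 1073 in the hypertrophic zone. Its transition arrays lay below all neighbours, farthest in animal 5, at -1.48 ± 0.23 (adjusted p = 0.000152), while its other probe sets gave -2.32 ± 0.47 (a trough) and -0.89 ± 0.34 (not called). Cdkn2c, an inhibitor of CDK4 and CDK6, was a trough of -1.09 ± 0.17, with another probe set at -0.39 ± 0.33, and Rbl1 was called lower at -1.05 (-0.89 without animal 5).

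**Figure D4:**
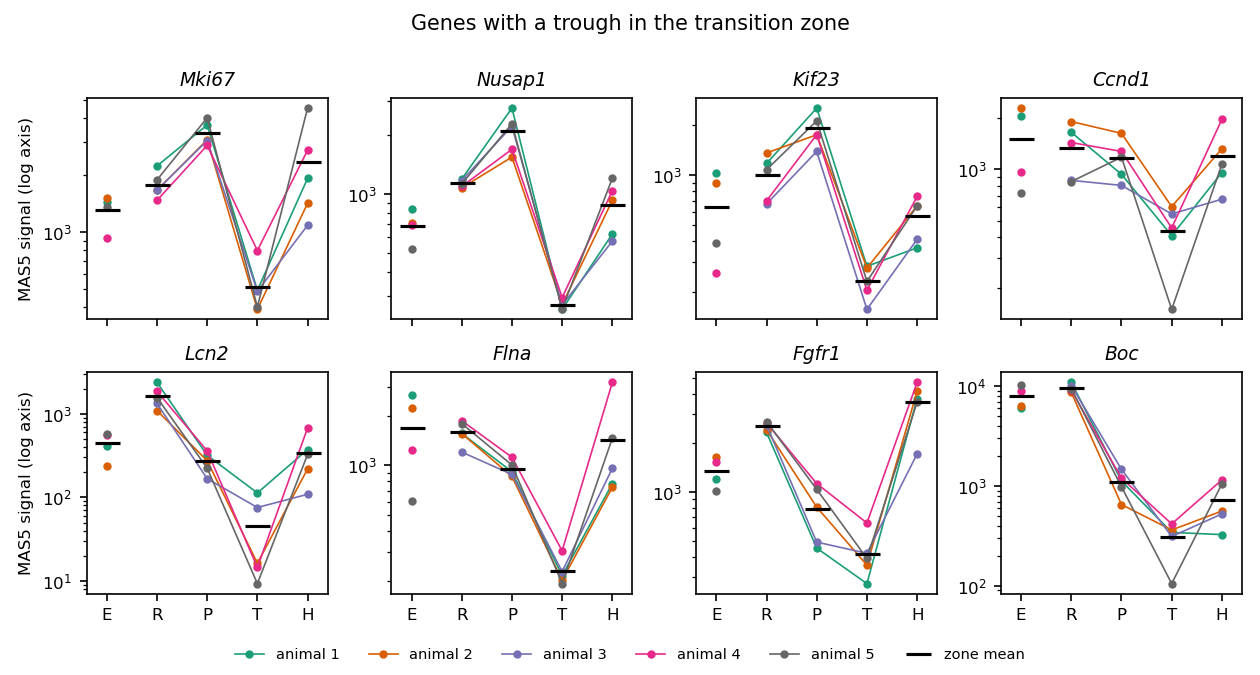
MAS5 signal on a log axis by zone and animal, as E, R, P, T and H, for 8 genes with a trough in the transition zone. All T points lie below all P and H points for Mki67, Nusap1, Kif23, Ccnd1 and Flna, while the T values of Lcn2 spread widely.

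Troughs outside the cell cycle were led by Lcn2, lipocalin-2, an iron-siderophore binding protein, at -2.56 ± 0.32 (adjusted p = 1.59e-05). Lcn2 read 113, 16.3, 75.6, 14.5 and 9.3 in the transition zone, 318, 275, 167, 360.0 and 223 in the proliferative zone and 373, 219, 109, 674 and 325 in the hypertrophic zone. Its transition values were low in animals 2, 4 and 5 and higher in animals 1 and 3. Each was below both neighbours of its animal. The low ones were near or under the pseudocount of 16, where the size of a difference depends on that setting. Other large ones were Flna, filamin A, at -2.17 ± 0.27, Myl9, a myosin regulatory light chain, at -2.38 ± 0.38 and Myo1f, a class I myosin, at -2.05 ± 0.24 (adjusted p = 1.15e-05, 0.000165 and 6.91e-06).
Flna read 215, 201, 227, 304 and 192 in the transition zone, 915, 856, 881, 1119.7 and 1005 in the proliferative zone and 774, 737, 959.6, 3186 and 1461 in the hypertrophic zone. The 3 zones did not overlap on the transition side, and the hypertrophic array of animal 4 was far above the others. Ephb3, an ephrin receptor, was at -2.03 ± 0.22, Sik1, a salt-inducible kinase, at -2.0 ± 0.36 and Ier3, an immediate early gene, at -1.15 ± 0.22 (adjusted p = 2.12e-06, 0.000603 and 0.000895).

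Of the signalling genes among the named troughs, Fgfr1 had the smallest adjusted p. Fgfr1, an FGF receptor of prehypertrophic and hypertrophic chondrocytes, read 273, 355, 419, 644 and 389.5 in the transition zone, 451, 806, 491, 1125 and 1036 in the proliferative zone and 3748, 4159.7, 1713, 4716 and 3568 in the hypertrophic zone. The transition array was the lowest of its animal in all 5, by little against the proliferative zone (-0.85 ± 0.21) and by much against the hypertrophic zone (-3.03 ± 0.21), at -1.94 ± 0.18 (adjusted p = 3.87e-07). A second probe set of Fgfr1 was at -1.71, with -0.46 against the proliferative zone, and was not a trough. Pdgfra, a PDGF receptor, was at -1.52 ± 0.27, Vegfa, the angiogenic factor, at -1.21 ± 0.27 and Igfbp6, which binds IGF2, at -1.18 ± 0.29 (adjusted p = 0.00046, 0.00404 and 0.00773). Vegfa was above the proliferative zone in animal 1 and its contrast was -0.96 without animal 5, and Igfbp6 was at -0.72 (adjusted p = 0.0572) without animal 4, whose value was far below the others. Igfbp6 kept the trough call in 6 of the 18 other settings in which it was tested.
The hedgehog and PTHrP list had 13 tested members, 1 called higher and 1 lower, against 0.786% and 3.6% of all genes. Boc, a hedgehog co-receptor, was a trough at -1.50 ± 0.25 (adjusted p = 0.000316), with 343, 363, 312, 417 and 105 in the transition zone, 1123, 652, 1471, 1200.1 and 983 in the proliferative zone and 326, 561, 526, 1154 and 1050.3 in the hypertrophic zone. Each transition array of Boc was below both neighbours except in animal 1, where the hypertrophic array was slightly lower, and without animal 5 it was at -1.11 and no longer a trough.
Ihh itself, the ligand, read 8368, 7101, 6746, 7049 and 12159.6 in the transition zone against 1086, 696, 163, 665 and 566 in the proliferative and 12716, 10515, 10934, 6204 and 11682 in the hypertrophic zone. Ihh was called at 1.76 ± 0.35 (adjusted p = 0.00131) as a step, at 3.85 against the proliferative and -0.32 against the hypertrophic zone, and was not a peak. Gli1, the hedgehog target, was graded: it stood at -2.33 against the proliferative and 2.65 against the hypertrophic zone, with a contrast of 0.16 ± 0.27 (adjusted p = 0.749). Pth1r, the PTHrP receptor, was under 2-fold at 0.73 ± 0.14 (adjusted p = 0.00122), while a second probe set of it lay at -0.18 ± 0.23 (adjusted p = 0.659), and Gli2 was at -0.80 ± 0.23 (adjusted p = 0.0218). The remaining 8, Smo, Hhip, Evc, Dhh, Kif7, Sufu, Stk36 and Disp1, lay between -0.85 and 0.30, with no adjusted p under 0.05, except that Hhip reached -1.17 (adjusted p = 0.0382) without animal 4.

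Of 36 trough genes named by rule, 26 kept the call without animal 5, 28 without animal 2, 26 with arrays scaled to 1 median and 28 after quantile normalization. Those lost without animal 5 were Iqgap3, Ect2, Spc24, Boc, Vegfa, Igfbp6, Cdk1, Bub1b, Ube2c and Pdgfra, which then stood between -1.88 and -0.96, and Iqgap3, Ect2, Vegfa, Cdk1, Kif2c, Aurka, Bub1b and Ube2c were lost without animal 2. Taking the epiphyseal minus resting difference off, 51 of all 137 troughs passed an adjusted p of 0.05, Flna among them (-2.01, adjusted p = 0.0089). So did 11 of the 27 mitosis genes, such as Mki67 (-1.85, adjusted p = 0.00294) and Nusap1 (-1.48, adjusted p = 0.00269). Of all 10558 genes, 259 passed below 0 and 181 above. Of the 137, 99 were lower in epiphyseal than in resting cartilage and 38 higher. The transition zone was below epiphyseal cartilage for 135 of the 137, 116 at an adjusted p below 0.05. Of all genes 5423 were below, 1733 of them at that limit. The troughs were chosen on the same transition arrays, so these counts are not a separate test of them. Among the 15 named peaks and troughs with more than 1 tested probe set, the other probe sets pointed the same way in all but Lmnb1, and had the same class throughout in 2, Ccnb1 and Nusap1.

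The summed signals of erythroid, osteoclast and macrophage, osteoblast, and perichondrium and fibroblast markers were higher in every hypertrophic array than in any proliferative one, while those of leukocyte, skeletal muscle, endothelial and adipocyte markers overlapped. The summed signal of 6 erythroid markers was 1058 to 5479 in the transition, 2280 to 6348 in the proliferative and 9638 to 32480 in the hypertrophic arrays. For 11 osteoclast and macrophage markers it was 1735 to 2657, 995 to 2086 and 9225 to 85094 in the same order, and for 5 osteoblast markers 7278 to 16238, 3957 to 12049 and 49878 to 145115. The 10 perichondrium and fibroblast markers gave 4184 to 6543, 4888 to 10281 and 10315 to 81366. Leukocyte markers gave 676 to 2683, 578 to 3546 and 3289 to 13638, skeletal muscle markers 17318 to 39378, 20973 to 38861 and 31954 to 91086, endothelial markers 577 to 881, 649 to 1053 and 909 to 3288, and the 4 adipocyte markers 200 to 282, 82 to 665 and 190 to 544. The called genes of these lists (3 of 4 tested erythroid, 3 of 4 osteoblast, 3 of 10 muscle, 2 of 5 leukocyte, 2 of 10 perichondrium and 1 of 8 osteoclast genes, all lower, against 3.6% of all genes) lay farther below the hypertrophic than the proliferative zone, and only Pdgfra was a trough. Without animal 5 all 3 muscle calls (Acta1, Myl1 and Tnnc2), both leukocyte calls (S100a8 and S100a9), the erythroid Ahsp and the osteoblast Dmp1, Col1a1 and Col1a2 were lost. The adjusted p was then 0.242 to 0.295 for muscle, 0.329 and 0.359 for leukocyte genes, 0.204 for Ahsp, 0.17 for Dmp1, 0.0922 for Col1a1 and 0.0184 for Col1a2, which came under 2-fold. Array weights and the fit without the replicate block also ended the muscle and leukocyte calls. The median of the erythroid list, for example, was 0.07 against the proliferative and -2.56 against the hypertrophic zone. Limma called 0 of 5 endothelial genes, with 2 at an unadjusted p below 0.05. The part of these cells in the other troughs was not tested. Chondrocyte markers summed to 173320 to 426346 in the transition, 180689 to 431359 in the proliferative and 201317 to 503649 in the hypertrophic arrays. Limma called 0 of 6 tested, with 0 at an unadjusted p below 0.05, each gene at its probe set of highest mean. Another probe set of Col2a1 was a trough at -1.18 ± 0.27 (adjusted p = 0.0042), and a further one was not called at -0.24 ± 0.16.

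Of the matrix and maturation genes called, most were not peaks or troughs. Of 21 hypertrophy and mineralization genes, 3 were higher (Col10a1 at 1.65 ± 0.40, Alpl at 1.58 ± 0.29 and Phospho1 at 1.43 ± 0.20) and 3 lower (Vegfa, Dmp1 and Mepe), against 0.786% and 3.6% of all genes, and only Vegfa had the shape of a peak or trough. Col10a1, collagen X, read 55989, 39485, 23885, 30697 and 33560.1 in the transition zone, between 4133, 4898, 1533, 628 and 1939 in the proliferative and 118264, 64624, 35544, 46026 and 63170.4 in the hypertrophic zone. In every animal it lay between its neighbours and was nearer, on the log scale, to the hypertrophic array. Of 24 cartilage matrix genes, Omd, Matn2 (1.14 ± 0.18), Prelp (1.10 ± 0.23) and Scrg1 (1.07 ± 0.19) were higher and Dcn lower (-1.08). The shares over all genes were again 0.786% and 3.6%. Matn2, Prelp and Scrg1 stood in the transition zone near or below the proliferative level and fell steeply after it.
Over all genes 48.6% lay above 0, 0.786% were called higher and 3.6% lower. Proteoglycan synthesis genes lay above 0 in 18 of 21, with a median of 0.43, and Has2, hyaluronan synthase 2, at 1.30 ± 0.21, and Chst12 at 1.07 were called. Wnt4 at 1.32 ± 0.22 and Klf4 at 1.22 ± 0.18 were steps kept in the hypertrophic zone, as were Has2 and Phospho1. Proteases and their inhibitors lay below 0 in 18 of 20, with a median of -0.83 and 3 called lower, none of them a trough (Timp3, Serpine2 and Serpinb1a). Glycolysis and hypoxia genes had 25 of 34 above 0 and a median of 0.27, with Epas1 and Vegfa called lower, a share near that of all genes (3.6%), and ER folding and secretion genes 20 of 29 and 0.22, with Ero1b called lower. In the IGF list of 15, Igf1 was at -1.82 ± 0.48, with mean signals of 22.9 in the transition and 21.5 in the proliferative zone, near the pseudocount, and 565 in the hypertrophic zone. A second probe set of Igf1 was at -0.37 ± 0.44 (adjusted p = 0.635), the call was lost without animal 5 (adjusted p = 0.0504), and Igfbp6 was the other called gene. The calls in the remaining lists were Smad3 lower of 14 TGF-beta genes, Wnt4 higher and Lrp4 lower of 19 Wnt genes and Fgfr1 lower of 9 FGF genes. Rxrg was called higher of 15 receptor genes (adjusted p = 0.143 without animal 5), and Cldn10 higher and Car3 lower of 21 transport genes. Limma called 0 of 9 BMP ligands, 0 of 19 BMP antagonists and responders and 0 of 18 maturation factors, with 4, 3 and 6 at an unadjusted p below 0.05, each gene at its probe set of highest mean. Another probe set of Bmp2 was called higher at 1.21 ± 0.32 (adjusted p = 0.0133). So was one of Atp1b1 at 1.03 ± 0.24 (adjusted p = 0.00476). Probe sets of Dusp6 at -1.65 ± 0.50 and Car2 at -1.17 ± 0.26 were called lower (adjusted p = 0.0288 and 0.00386), though these genes were not called at their probe set of highest mean. Heat shock and immediate early genes had Hspb1 and Klf4 higher and Egr1, Ier2 and Ier3 lower of 24 (Ier2 with an adjusted p of 0.0825 without animal 5), and the 23 collagens had Col10a1 and Col12a1 higher and Col1a1, Col1a2 and Col18a1 lower.

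**Figure D5:**
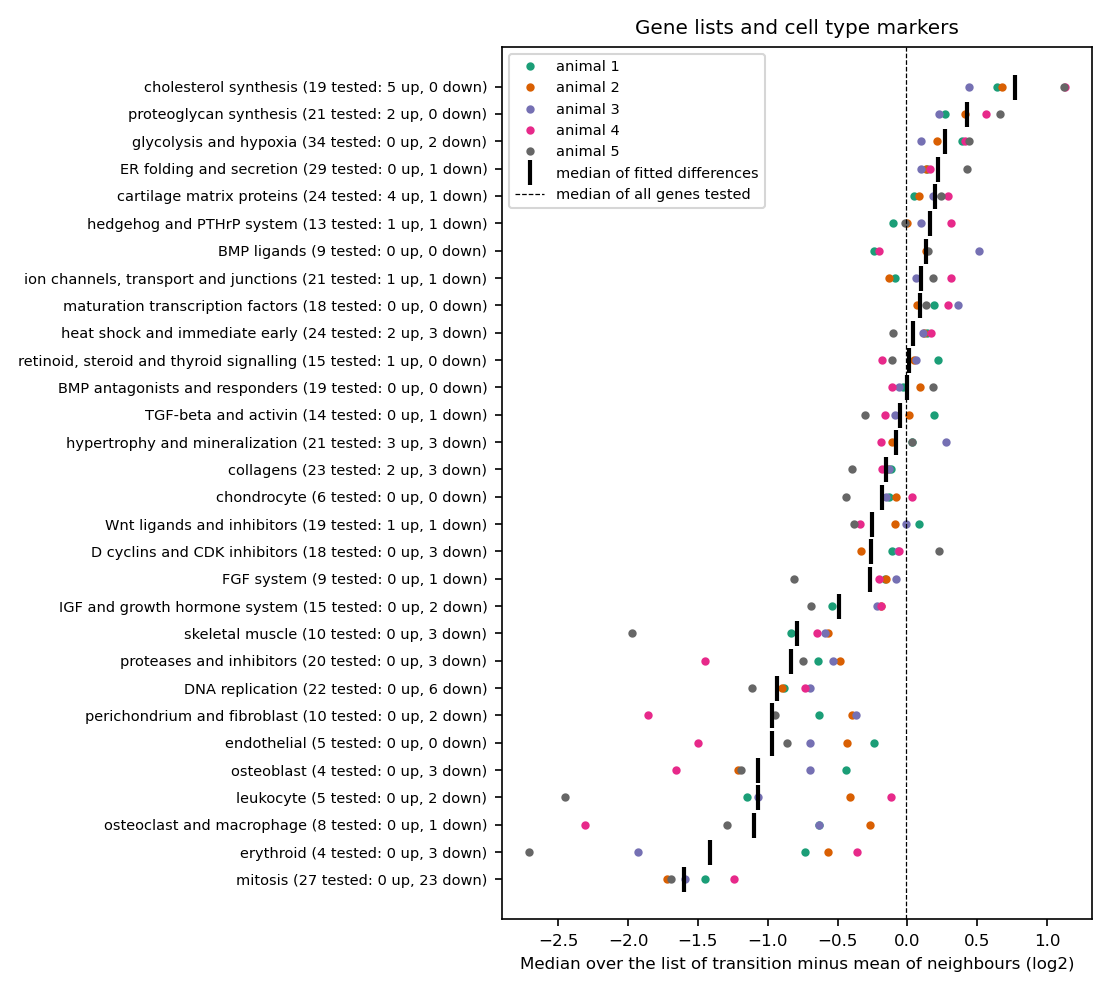
Median over each list of the transition minus neighbour mean difference (log2), as a point per animal and a bar for the fitted differences, with the numbers of genes tested and called beside each name. Cholesterol synthesis lies farthest right at 0.77 and mitosis farthest left at -1.60, in every animal on the same side of 0, while the medians of the chondrocyte, collagen, TGF-beta and hypertrophy lists turn from below to above 0 when arrays are scaled to 1 median.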

How the data were processed

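Total RNA of hand-dissected cartilage zones was measured on Affymetrix rat arrays after amplification from 50 to 100 ng, per the labels' protocols. What the authors deposited is an intensity for each probe set, computed with MAS5 per the submitters' processing notes (its version: not given in the sources used here). Averaged without the extreme 2% at each end, the signal was 500.1 to 500.2 in all arrays.

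From these, log2(signal + 16) was computed with no further normalization. Control probe sets (57) were left out, and the 19213 of 31099 probe sets above their array's median in at least 4 of 24 arrays were tested. Symbols came from the platform annotation, updated to RefSeq GRCr8: 1 symbol for 13956 of those tested, several for 323, none for 4934. Limma 3.58.1 in R 4.3.3 (lmFit, eBayes with trend) fitted zone and animal number as a fixed block to all 24 arrays, with 15 residual degrees of freedom, and p-values were Benjamini-Hochberg adjusted over all tested probe sets. This fit was tested on simulated data. The precision is limited by 5 arrays a zone.

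The labels name the animal of each array, so the numbers pair the samples. Deviations from zone means correlated at a median r of 0.175 across probe sets between same-numbered arrays (15 pairs, -0.0757 to 0.295) and of -0.0474 between others (60 pairs), and 11 of the 15 arrays matched their own number best. The 4 that did not were the 3 arrays of number 5 and the hypertrophic array of number 4. Arrays of a zone shared 50 identical values at most, so each counts as 1 sample.

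Named genes are the 15 largest peaks and 15 largest troughs that lay outside both neighbours in 5 of 5 animals, all tested hedgehog and PTHrP genes, and of each other list up to 4 members of smallest adjusted p and its peaks and troughs. The arrays, gene lists and tests were chosen with earlier results of these data known. Promoter sequences are RefSeq's (GRCr8), where the table has an entry. Figures used Python 3.11.15 and matplotlib 3.10.9.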

Additional observations from a re-analysis of the deposited data

Results flagged for a closer look

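Of 191 sets of 5 within-animal differences looked at (named genes and list medians), 16 held a value whose gap to the nearest other, over the range, passed Dixon's limit of 0.71. Chance gives such a value in about 1 of 20 sets. Animal 5 gave 12 of the 16.

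Among genes, Omd was at 3.13 in animal 5 and at 1.46 to 1.68 in the others, Sqle at 2.20 against 0.82 to 1.22, Klf4 at 1.77 against 1.04 to 1.18, and Xbp1 at 0.93 against 0.31 to 0.44. In the same animal Disp1 was at -0.28 against 0.32 to 0.53, Car2 at -2.05 against -0.98 to -0.58, and Acta1 at -3.18 against -1.06 to -0.52. Alpl was at 2.20 in animal 3 against 1.33 to 1.54, and Fgfr2 at -0.41 in animal 3 against -0.91 to -0.83. Igfbp6 was at -3.03 in animal 4 against -1.01 to -0.19.

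Among list medians in animal 5, the FGF system was at -0.81 against -0.20 to -0.08, ER folding and secretion at 0.43 against 0.10 to 0.16, heat shock and immediate early genes at -0.10 against 0.11 to 0.17, collagens at -0.40 against -0.18 to -0.12, and skeletal muscle markers at -1.97 against -0.83 to -0.57. Proteases and inhibitors were at -1.45 in animal 4 against -0.75 to -0.48.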

How the results depend on the processing

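The named contrasts kept their sign wherever they were called, and calls were lost. Of 90 named genes called, 23 lost the call without animal 5, 18 with arrays scaled to 1 median, 17 after quantile normalization, 16 without the transition array of animal 5, 12 with array weights and 0 to 10 under each other setting. Of 36 named troughs, 26 remained troughs under scaling and 28 after quantile normalization, and of 19 named peaks 13 remained with array weights and 15 after quantile normalization. Counts of probe sets past the threshold (134 higher, 610 lower, 43 peaks, 221 troughs) moved as follows. A pseudocount of 64 gave 351 lower and 137 troughs. Quantile normalization gave 361 lower and 125 troughs. Arrays scaled to 1 median gave 342 higher, 355 lower, 147 peaks and 115 troughs, so the share of higher calls went from 18% to 49.1% (29.9% after quantile normalization). A filter at the 75th percentile gave 317 lower and 139 troughs. Asking for 2-fold against each neighbour left 21 peaks and 143 troughs. Without the transition array of animal 5 there were 382 lower, 26 peaks (24 shared with the 43) and 144 troughs. Leaving out 1 animal at a time gave 91 to 161 higher, 340 to 666 lower, 21 to 65 peaks and 111 to 246 troughs. Without the replicate block the counts were 120, 518, 34 and 171, and the fits without filter, without trend, with array weights, with a random block, on 15 arrays alone or on within-animal differences stayed within 1.5 times on all 4 counts. Medians of the chondrocyte, collagen, TGF-beta, adipocyte and hypertrophy lists changed sign under a scaling. The cause of these changes was not tested. Dim genes are limited by signal over background, since detection calls were not used here.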
